A study of Mus musculus with 48 samples.

Results

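Subcutaneous B16-D5 melanomas were compared between iNOS KO and WT mice after anti-PD-1 treatment. The 6 tumors were chosen by their column titles in the second experiment of the series: 3 KO tumors (replicates 1, 2 and 3) and 3 WT tumors (replicates 2, 3 and 4), out of 48 libraries in all. They belong to a set of 18 tumors in which each genotype was also sampled untreated and after control IgG, 3 tumors per group. The mice were C57BL/6J (WT) or iNOS KO, which arrived aged 4 weeks and were kept for another 2; tumor cells were injected on day -8 and 250 µg of antibody was given on days 0 and 3. The time of sampling, day 7, is given by the study's text and not by the titles. The genotype field of the labels reads WT for every sample, so genotype was taken from the titles. Only the host carries the deletion, because the injected melanoma cells do not come from KO mice, and each library is a whole tumor in which melanoma cells and host cells are mixed. A lower level in such a tissue can come from fewer cells of a type or from less RNA per cell, and these cannot be told apart.

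Inducible nitric oxide synthase, the product of Nos2, makes nitric oxide from arginine, mostly in activated macrophages, and its transcription is induced by interferon-γ and bacterial products. Anti-PD-1 blocks an inhibitory receptor of T cells. Activated T and NK cells release interferon-γ, which acts through its receptor and JAK kinases on tumor and host cells and induces guanylate-binding proteins, immunity-related GTPases, the chemokines CXCL9 and CXCL10 and the machinery of antigen presentation.

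Libraries of this comparison differed in depth and in background. The 3 KO tumors held 31913805 to 40501207 counts, and WT tumor 2 held 35616739, but WT tumors 3 and 4 held 11625862 and 18797177, below the 23267834 to 40959309 of the 12 tumors without anti-PD-1. Counts over the exons of 2015 olfactory, vomeronasal and taste receptor genes, which a tumor should hardly express, came to 0.116 to 0.140 per kilobase in the KO tumors, 0.330 in WT tumor 2, 7.86 in WT tumor 3 and 4.50 in WT tumor 4. The background of a gene was estimated from this rate and its exon length, an assumption that was not tested and that the satellite repeat genes described below do not follow. Genes were therefore described mainly where they were well expressed, meaning a mean of at least 10 CPM (counts scaled to a common library size) over the 18 tumors. That left 9608 of the 30837 genes tested, and 9346 of them code for proteins. Since 2 of the 3 WT tumors carry the background, and WT tumor 2 alone was deep with little of it, the values of the gene groups without these libraries are given below and in the plot of list medians.

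No gene passed an adjusted p of 0.05 between the KO and WT tumors after anti-PD-1 (0 of 30837, 0.0%; edgeR quasi-likelihood test with Benjamini-Hochberg adjustment, smallest adjusted p 0.119). At an unadjusted p under 0.05, 9959 of all genes tested were counted, 8204 of them lower in the KO tumors (26.6%) and most of them below 10 CPM. The call was sensitive to the tool and to a single tumor. DESeq2, which the study's methods name for normalization and testing, called 3046 genes, and limma voom with quality weights called 17773. With edgeR, 4959 were called once WT tumor 2 was left out, and 34 to 1112 when 1 of the 12 tumors without anti-PD-1 was left out. Leaving out any other of the 6 compared tumors gave 0. Among well-expressed genes, 1728 (18%) stood higher in the KO tumors, and 73 (0.76%) lower, at an unadjusted p under 0.05, and the median log2 fold change of all 9608 was 0.25. Scaling the libraries on the well-expressed genes alone moved that median to -0.01 and the counts to 357 higher (3.72%) and 444 lower (4.62%), so the balance of higher and lower genes depends on the scaling. All 3 KO values lay above all 3 WT values for 1521 well-expressed genes (15.8%) and below them for 71 (0.739%). Folds below are log2(KO/WT) from the edgeR fit, positive where the KO tumors were higher, and they should be read against the shift of 0.25.

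Nos2 (ENSMUSG00000020826.8, chr11:78920787-78960254, plus strand, mm10) was not absent from the KO tumors. It stood at 5.4, 1.15 and 1.3 CPM in KO tumors 1, 2 and 3 and at 4.09, 7.28 and 2.87 CPM in WT tumors 2, 3 and 4, with means of 2.62 ± 2.41 and 4.75 ± 2.28 CPM (SD, n = 3 each). The groups overlapped, KO tumor 1 being above WT tumors 2 and 4, and the log2 fold change of -0.85 (SE 0.58) had an adjusted p of 0.284 in edgeR. In WT tumors 3 and 4, the receptor background is expected to account for 31.3% and 33.1% of the Nos2 counts. Untreated KO tumors gave 2.41 to 4.98 CPM against 1.40 to 3.56 in untreated WT tumors. Counts over the whole gene do not check the deletion, since melanoma cells carry the intact gene and a deleted allele can still give transcript from the exons it retains.

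The transcription factors and checkpoint genes of interferon signaling that the study follows did not pass the test, and most overlapped between genotypes. Irf1, an early interferon-γ target that in turn activates many of these genes, was 25.1, 24.5 and 27.3 CPM in the KO tumors against 55.0, 30.4 and 29.3 CPM in the WT tumors. The Irf1 groups did not overlap, but the fold of -0.58 (edgeR adjusted p 0.196) shrank to -0.17 without WT tumor 2. Cd274, which encodes PD-L1, had a fold of -0.15 with overlapping groups (edgeR adjusted p 0.700), and 0.14 without WT tumor 2. Irf3 and Irf7, which drive type I interferon genes, had folds of 0.14 and -0.41, and both changed sign with the library set. Ifng itself was at or near 0, with 0, 0.0622 and 0 CPM in KO tumors 1, 2 and 3, and 0, 0.393 and 0.669 CPM in the WT tumors, the last values in the 2 libraries with background. Ifnb1 had no counts outside WT tumor 3 and was not tested.

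The lowest list medians after anti-PD-1 belonged to short lists, MHC class II genes (-0.75 over 8 well-expressed members) and adipocyte genes (-0.64 over 4). Among the lists examined with at least 10 well-expressed members, genes induced by interferon-γ stood lowest in KO tumors relative to the rest. Of 27 listed genes, 20 were well expressed; 18 of these had a fold below 0, 5 were lower at an unadjusted p under 0.05 (background 0.76%) and 0 were higher, with a median of -0.57 against 0.25 over all well-expressed genes. As background, factors activated by interferons bind short DNA elements near the starts of such genes. In RefSeq windows from 250 bases before to 50 after the start (GRCm38.p6), matched for 19 of the 27 genes, 11 (57.9%) held the interferon-stimulated response element core GAAANNGAAA on either strand and 8 (42.1%) held the palindromic gamma-activated sequence TTCNNNGAA, against 3.99% and 9.55% of all 27025 genes with a window. Gbp5, Gbp2 and Tgtp1 are shown because all had KO-to-WT folds below 0 and they differ in the motifs they hold; capitals mark the motif matches, a description of letters and not a measured site. The windows are chr3:142496684-142496983 (plus), chr3:142620413-142620712 (plus) and chr11:48992197-48992496 (minus).
Gbp5: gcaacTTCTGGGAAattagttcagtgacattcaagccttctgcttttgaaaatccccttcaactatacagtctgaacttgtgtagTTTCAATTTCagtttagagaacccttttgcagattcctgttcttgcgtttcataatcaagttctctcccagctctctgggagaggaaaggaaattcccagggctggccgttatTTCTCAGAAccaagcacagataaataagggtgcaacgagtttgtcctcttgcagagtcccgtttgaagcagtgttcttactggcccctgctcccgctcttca
Gbp2: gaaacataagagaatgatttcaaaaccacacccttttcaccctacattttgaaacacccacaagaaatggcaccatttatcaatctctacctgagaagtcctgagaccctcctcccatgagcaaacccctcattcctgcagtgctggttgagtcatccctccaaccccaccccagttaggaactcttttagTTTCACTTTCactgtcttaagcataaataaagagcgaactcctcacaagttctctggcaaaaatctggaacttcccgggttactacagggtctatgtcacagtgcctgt
Tgtp1: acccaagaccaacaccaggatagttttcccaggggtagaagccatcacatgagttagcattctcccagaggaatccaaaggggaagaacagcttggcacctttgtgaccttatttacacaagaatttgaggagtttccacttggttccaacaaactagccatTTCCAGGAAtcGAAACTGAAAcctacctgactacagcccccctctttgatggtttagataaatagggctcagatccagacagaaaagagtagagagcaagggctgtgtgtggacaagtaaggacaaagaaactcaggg

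Gbp4 (ENSMUSG00000079363.7, chr5:105115767-105139586, minus strand), a guanylate-binding protein that helps attack intracellular pathogens, was 1.98, 5.10 and 2.7 CPM in the KO tumors and 29.6, 12.5 and 5.50 CPM in the WT tumors. All 3 WT values were higher, but less background WT tumor 4 had 3.88 CPM, below KO tumor 2, and the log2 fold change was -2.29 (SE 0.69, edgeR adjusted p 0.123). Ifi47 (chr11:49076587-49096974, plus strand), an immunity-related GTPase, was 6.58, 6.44 and 7.67 CPM against 22.4, 15.7 and 9.42 CPM, again without overlap (log2 fold change -1.20, SE 0.37, edgeR adjusted p 0.124). Cxcl9 (chr5:92321347-92328079, minus strand), the chemokine that draws CXCR3-bearing T cells, was 3.21, 8.21 and 4.72 CPM against 35.6, 11.2 and 7.46 CPM, and KO tumor 2 overlapped WT tumor 4 (fold -1.76, edgeR adjusted p 0.129). Gbp2 (chr3:142620602-142638008, plus strand) was 7.10, 10.1 and 6.14 CPM against 43.1, 14.5 and 7.41 CPM (fold -1.49, edgeR adjusted p 0.136). In each of these genes WT tumor 2 was highest and WT tumor 4 lowest among the WT tumors.

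Iigp1, Gbp5 and Tgtp1 had the same order among the WT tumors. Iigp1 stood at 15.3, 23.5 and 23.6 CPM in the KO tumors against 129, 46.8 and 22.8 CPM in the WT tumors (fold -1.68). Gbp5 was weakly expressed, with 3.55, 1.77 and 2.07 CPM against 14.6, 7.61 and 6.07 CPM (fold -1.94, edgeR adjusted p 0.124), and its groups did not overlap. Tgtp1 shares reads with its near-identical copy Tgtp2, so its 0.783, 4.48 and 1.40 CPM against 13.8, 8.00 and 2.20 CPM (fold -1.86) is uncertain; the guanylate-binding and immunity-related GTPase families are paralogs whose counts can be split. The members with the highest levels lay closer together: Psme1, a proteasome activator, was 116, 119 and 166 CPM against 156, 109 and 123 CPM, and Cxcl10 was 117, 105 and 106 CPM against 166, 110 and 104 CPM. Wars, the tryptophanyl-tRNA synthetase that interferon-γ induces, was not lower, with 88.8, 105 and 86.8 CPM against 109, 42 and 65.7 CPM.

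**Figure D1:**
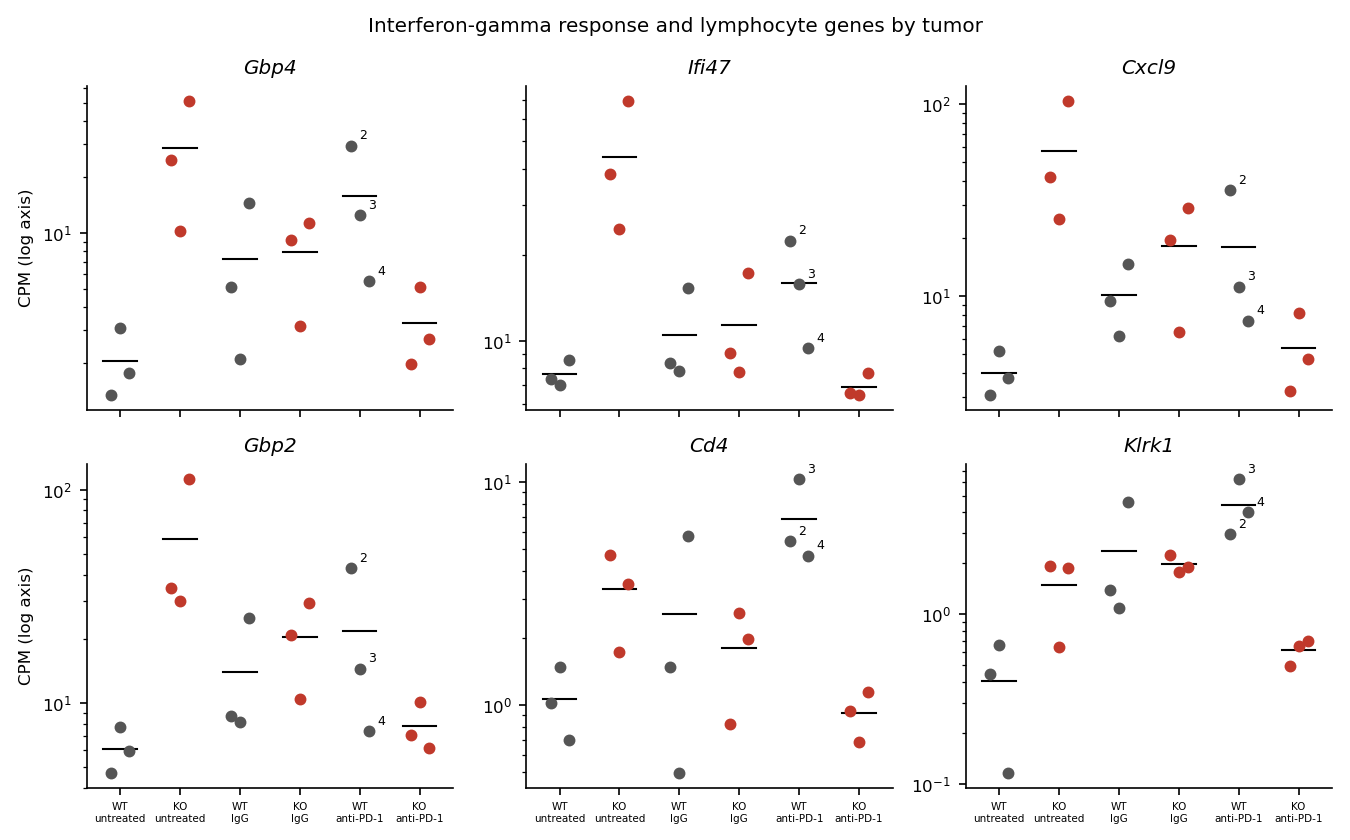
CPM on a log axis of 6 genes (Gbp4, Ifi47, Cxcl9, Gbp2, Cd4 and Klrk1) in each of the 18 tumors, by group. Each point is a tumor, lines mark group means and the numbers on the WT anti-PD-1 points are replicate numbers; the KO anti-PD-1 points of Gbp4 (1.98 to 5.10 CPM) lie below those of the WT anti-PD-1 tumors (5.50 to 29.6 CPM), and untreated KO tumors lie high.

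The interferon-γ result depended on WT tumor 2. Its list score, the mean log2 CPM of the well-expressed members, was 4.29, 4.40 and 4.39 in the KO tumors and 5.6, 4.66 and 4.40 in WT tumors 2, 3 and 4. Without WT tumor 2 the median fold was -0.00 while that of all well-expressed genes was 0.44, and without WT tumors 3 and 4 it was -1.06 against -0.06, WT tumor 2 then being the only WT tumor. Gbp4 and Ifi47 remained negative in every alternative run, at -3.28 to -1.17 and -1.80 to -0.54, and stood at -1.40 and -0.80 without WT tumor 2; the folds of Cxcl9 and Gbp2 without it were -0.74 and -0.43. In WT tumors 3 and 4 the background is expected to make up 30.9% and 29.4% of the Gbp4 counts but 8.10% and 5.65% of those of Ifi47. After the background was subtracted the list median was -0.68, and under scaling on well-expressed genes it was -0.82.

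The genotypes were ordered the other way in untreated tumors, and they overlapped after IgG. The list score was 5.84, 5.38 and 6.69 in the 3 untreated KO tumors against 4.14, 4.49 and 4.27 in untreated WT tumors, with no overlap, and the median fold of the 20 genes was 1.39. After IgG, KO tumors scored 4.81, 4.36 and 5.43 and WT tumors 4.48, 4.34 and 5.04, which overlapped, and the median fold was 0.22. Over the 12 tumors without anti-PD-1 together, 17 of the 20 genes were higher in KO at an unadjusted p under 0.05 (background 10.1%). By arm, 18 were higher in untreated tumors and 1 after IgG, against 821 and 493 of the 9608 well-expressed genes. The 20 were kept by their mean level over all tumors, so high untreated KO levels helped members to pass and favor the counts of 17 and 18. Across all genes, the comparison without anti-PD-1 gave 102 genes at an adjusted p under 0.05 (0.331%), 101 of them higher in KO. Of the 102, 66 had a fold of the opposite sign after anti-PD-1. The share of such sign changes over all genes was not computed, so the 66 cannot be read as a reversal.

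The difference between these 2 genotype contrasts was tested directly, as an interaction. No gene passed an adjusted p of 0.05 (0 of 30837, 0.0%; smallest 0.0952, edgeR), and 7465 had an unadjusted p under 0.05. DESeq2, the tool of the study, called 2450 at an adjusted p under 0.05. Of the 20 interferon-γ genes, 16 had a lower KO-to-WT ratio after anti-PD-1 than without it at an unadjusted p under 0.05, against 353 of all well-expressed genes (3.67%). The 20 were kept by their mean level over all tumors, and as a group the untreated KO tumors had the highest levels. Members that passed through a high untreated KO level tend to give a lower ratio after anti-PD-1. How many of the 16 owe their call to this was not tested. Gbp4 had the log2 fold 0.12 after IgG, 3.81 untreated and -2.29 after anti-PD-1, and its interaction was -4.26 (edgeR adjusted p 0.0952). The genotype contrast without anti-PD-1 was itself larger in untreated tumors than after IgG, as the medians above show, so IgG alone gives a smaller difference. Set against IgG alone, a contrast added after the data had been seen, 8 of the 20 were lower (background 0.739%). Without WT tumors 3 and 4, the interaction passed an adjusted p of 0.05 in 8 genes, Cxcl9, Iigp1, Gbp2, Ifi47, Tgtp1, Gbp4, Tgtp2 and Gbp6, all of them on the interferon-γ list; these were singled out after their values were seen, and that fit has WT tumor 2 as its lone WT anti-PD-1 tumor, assumed to vary like the other groups. With all libraries but WT tumor 2, 6128 genes passed.

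**Figure D2:**
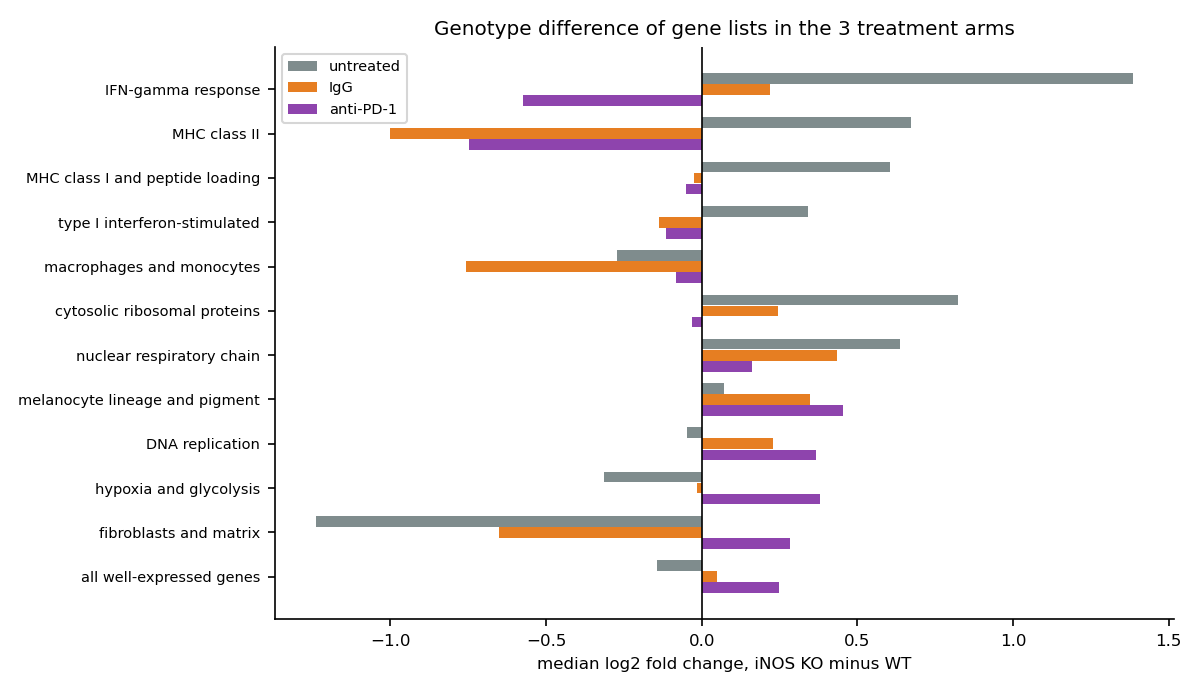
Median log2(KO/WT) of 11 gene lists and of all well-expressed genes, as 1 bar per arm (untreated, IgG, anti-PD-1), 3 KO against 3 WT tumors in each. The interferon-γ list runs from 1.39 untreated through 0.22 after IgG to -0.57 after anti-PD-1, while all well-expressed genes run from -0.14 through 0.05 to 0.25.

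Other interferon and antigen presentation lists differed less or only through WT tumor 2. The 36 well-expressed genes stimulated by type I interferons had the median -0.11, with 1 higher and 1 lower, and 0.34 without WT tumor 2 or -0.64 without WT tumors 3 and 4; Bst2, which tethers budding virus, was 446, 377 and 377 CPM in KO and 469, 342 and 436 CPM in WT tumors. The 19 well-expressed interferons, receptors and signal transducers had a median of 0.08 with 1 higher, and 0.42 or -0.38 without those libraries. The 8 well-expressed MHC class II genes were all below 0 with a median of -0.75, but without WT tumor 2 the median was 0.31, and without WT tumors 3 and 4 it was -1.90. Cd74, the invariant chain, showed the dependence most clearly: 236, 119 and 259 CPM in the KO tumors against 805, 125 and 157 CPM in the WT tumors, of which only WT tumor 2 lay above the KO range.

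Ciita (ENSMUSG00000022504.10, chr16:10480059-10528418, plus strand), the master activator of class II genes, did not overlap between genotypes. It was 5.43, 6.04 and 5.34 CPM in the KO tumors and 23, 19.3 and 9.32 CPM in the WT tumors, with a log2 fold change of -1.62 (SE 0.51, edgeR adjusted p 0.128) and -1.29 without WT tumor 2. Background is expected to account for 25.4% and 22% of its counts in WT tumors 3 and 4. MHC class I genes had a median of -0.05 over 15 members, which was 0.37 without WT tumor 2 and -0.79 without WT tumors 3 and 4. H2-Q7, a class Ib gene with near-identical copies, was lower at an unadjusted p (11.8, 3.98 and 6.84 CPM against 44.8, 13 and 11.8 CPM, fold -1.63). B2m, the shared light chain, was 2936, 2346 and 5414 CPM against 4819, 2870 and 2875 CPM, with the highest value in a KO tumor.

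Transcripts of T and NK lymphocytes were scarce in all tumors, and after anti-PD-1 their summed level was lower in every KO tumor than in any WT tumor. No gene of the 35 on the list was well expressed. Summed over the list, the KO tumors had 21.5, 19.4 and 27.8 CPM and WT tumors 2, 3 and 4 had 63.3, 125 and 65.2 CPM, of which the receptor rate predicts 0.85, 46.9 and 19.6 CPM as background. Less that background, the sums were 21.2, 19.1 and 27.5 CPM against 62.5, 78.4 and 45.6 CPM, so the groups stayed apart, and the background was small in WT tumor 2, which also stood above the KO tumors. In IgG-treated tumors the subtracted sums overlapped, at 29.2 to 49.1 CPM in KO and 45.3 to 75.1 in WT, and in untreated tumors the order was turned, at 35.7 to 71.3 CPM in KO and 16.9 to 29.3 CPM in WT. Subtraction was added after the data had been seen.

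**Figure D3:**
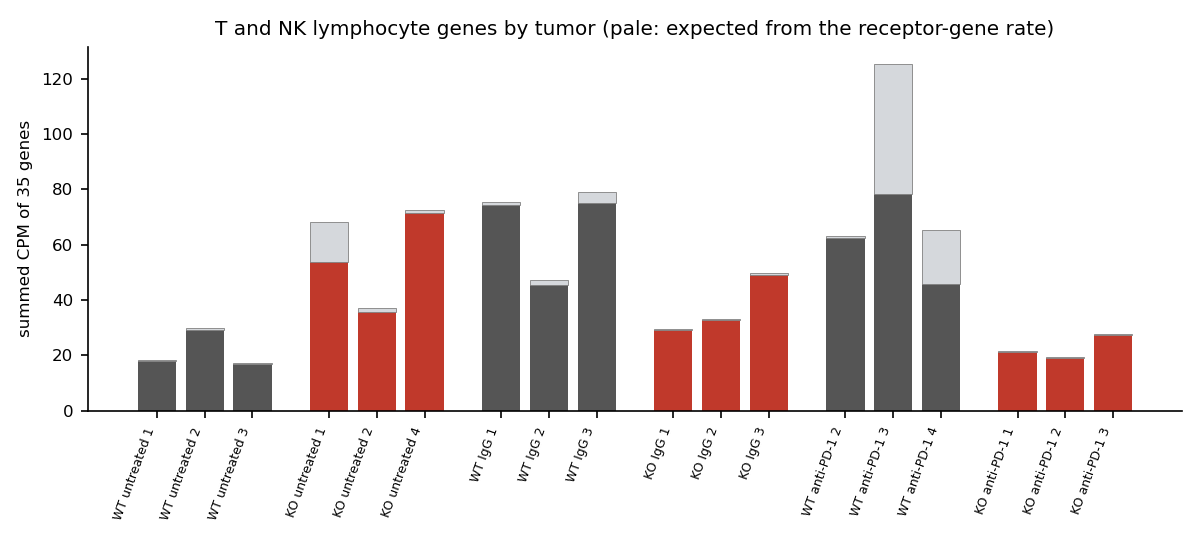
Summed CPM of the 35 T and NK cell genes in each of the 18 tumors, as bars from 0, the pale part being the CPM expected from the receptor background. WT anti-PD-1 tumor 3 has the tallest bar, 125 CPM, of which 46.9 CPM is pale, and the 3 KO anti-PD-1 bars reach 19.4 to 27.8 CPM.

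Of the 35 genes, 19 were lower and 0 higher at an unadjusted p under 0.05 (background 26.6% lower among all genes tested). That share takes in the well-expressed genes, of which 0.76% were lower, so it is larger among scarce genes such as these. The same holds for the share after subtraction, where 97 of the 9608 well-expressed genes were lower. With the background subtracted, 13 of 34 were lower (background 15.9%), among them Cd3e and Cd3g of the T cell receptor complex, the coreceptors Cd4, Cd8a and Cd8b1, the NK receptors Klrk1, Klrd1 and Ncr1, the granzyme Gzma, the transcription factors Eomes and Tbx21 and the checkpoint Lag3. Cd4, the coreceptor of helper T cells, was 0.939, 0.685 and 1.14 CPM in KO and 5.43, 10.4 and 4.68 CPM in WT tumors, or 5.39, 8.28 and 3.82 CPM in WT tumors less background. Its log2 fold change was -2.88 (SE 0.71, edgeR adjusted p 0.123), and -2.96 without WT tumor 2. Klrk1, which encodes the activating receptor NKG2D, was 0.496, 0.653 and 0.700 CPM against 2.98, 6.30 and 4.01 CPM, or 2.92, 2.59 and 2.47 CPM in WT tumors less background (fold -2.84, SE 0.69, edgeR adjusted p 0.123). Background is expected to make up 58.8% of the Klrk1 counts in WT tumor 3 but 2.25% in WT tumor 2. Cd3e was 0.704, 0.560 and 1.84 CPM against 4.80, 6.69 and 2.39 CPM (fold -2.15), and Cd8a, the coreceptor of cytotoxic T cells, was 0.183, 0.311 and 0.181 CPM against 1.11, 5.77 and 2.87 CPM (fold -3.83, SE 1.03, edgeR adjusted p 0.123). As counted, the groups did not overlap in any of these 4 genes. Less background, Cd3e in WT tumor 4 was 1.51 CPM, below KO tumor 3, while Cd4, Klrk1 and Cd8a stayed apart, and at these levels a few counts make a value.

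Markers of other host cells were examined in the same way. Macrophage and monocyte genes had a median of -0.08 over 18 well-expressed members with 0 past an unadjusted p under 0.05, and 0.91 without WT tumor 2 or -1.19 without WT tumors 3 and 4; Apoe was 879, 696 and 1055 CPM against 1106, 448 and 631 CPM. Fibroblast and matrix genes had a median of 0.28, and Col1a1 was 1915, 415 and 1164 CPM against 2207, 151 and 365 CPM, so that KO tumor 2 and WT tumors 3 and 4 were low. Without WT tumor 2 the fibroblast median was 1.47, and without WT tumors 3 and 4 it was -0.91. Endothelial genes stood at -0.04 over 12 members, chemokines and cytokines at 0.21 over 6, and adipocyte genes at -0.64 over 4, and the sign of each depended on the libraries. Without WT tumor 2 they were 0.50, 0.58 and 0.43, and without WT tumors 3 and 4 they were -0.80, -0.40 and -1.84. Skeletal muscle genes varied widely, with a list score of 1.45, 5.81 and 5.38 in KO tumors 1, 2 and 3, against 4.22, 4.18 and 3.99 in WT tumors 2, 3 and 4, a median fold of 1.17 and 0 past the test. Neutrophil, dendritic cell, keratinocyte and erythrocyte lists had 0 well-expressed genes, and the B cell and sex-specific lists had 1 each. Dendritic cell genes were apart in the same direction as the lymphocyte genes: less background, their sum was 15.9 to 20.5 CPM in KO and 23.3 to 34.5 CPM in WT tumors, and 4 of 9 genes were lower at an unadjusted p under 0.05 (background 15.9%). Their part in the lymphocyte difference was not tested. Less background, summed B cell genes were 12 to 35.8 CPM in KO and 17.1 to 50.5 CPM in WT tumors, which overlapped, keratinocyte genes were 10.8 to 17.3 CPM against 15.8 to 33.9 CPM, and neutrophil genes were 4.19 to 10.7 CPM against 9.98 to 31.8 CPM. In the subtracted counts 4 of 10 B cell, 5 of 8 neutrophil and 2 of 16 keratinocyte genes were lower at an unadjusted p under 0.05. Lower calls were thus not particular to lymphocyte and dendritic cell genes, and the background of 15.9% is larger among genes this scarce.

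**Figure D4:**
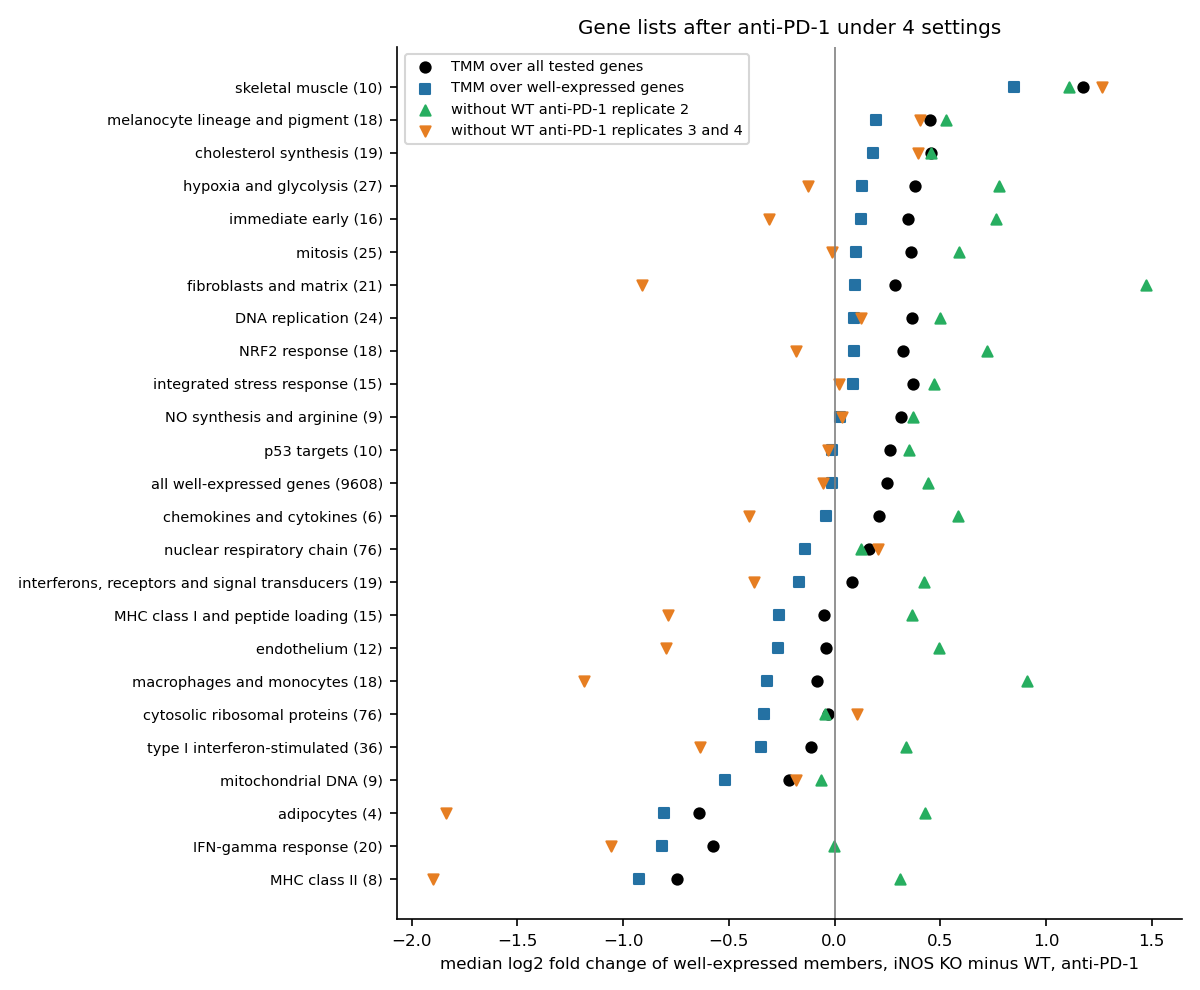
Median log2(KO/WT) after anti-PD-1 of 24 gene lists and of all well-expressed genes (number of well-expressed members in parentheses) under 4 settings: libraries scaled on all genes tested (black circles), scaled on well-expressed genes (blue squares), without WT tumor 2 (green triangles) and without WT tumors 3 and 4 (orange inverted triangles). The fibroblast list runs from -0.91 to 1.47 across them, whereas the melanocyte list stays between 0.20 and 0.53.

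Pigment cell genes stood higher in the KO tumors, with 0 past an adjusted p of 0.05, and by less when libraries were scaled on well-expressed genes. All 18 listed melanocyte genes were well expressed and had folds above 0, with a median of 0.45 (0.20 on well-expressed scaling, where the median of all is -0.01). In all, 8 were higher at an unadjusted p under 0.05 (background 18%), or 2 on well-expressed scaling (background 3.72%), and 10 did not overlap between genotypes (background 15.8%). Dct, which makes eumelanin precursors, was 6059, 7259 and 7247 CPM against 4548, 3564 and 5404 CPM (fold 0.61, edgeR adjusted p 0.164), and Tyrp1, its neighbor in the same pathway, was 4401, 4414 and 4608 CPM against 3501, 2815 and 3650 CPM. Slc45a2 (chr15:11000721-11029233, plus strand), a melanosomal transporter, was 172, 216 and 195 CPM against 115, 106 and 139 CPM, with a fold of 0.70 (SE 0.19, edgeR adjusted p 0.123) and 0.41 on well-expressed scaling. Trpm1, a channel of melanocytes, was 370, 417 and 448 CPM against 230, 258 and 321 CPM (fold 0.61). The list median was 0.35 after IgG and 0.07 in untreated tumors.

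Growth and metabolic lists had medians a little above that of all well-expressed genes. DNA replication genes had a median of 0.37 with 11 of 24 higher and 0 lower (background 18% higher), and Mcm2, a subunit of the replicative helicase, was 227, 215 and 229 CPM against 170, 123 and 156 CPM (fold 0.58, edgeR adjusted p 0.123). Mitosis genes had folds above 0 in 25 of 25, with a median of 0.36 and 8 higher, hypoxia and glycolysis genes had 0.38 with 8 of 27 higher, and cholesterol synthesis genes 0.46 with 4 of 19 higher. On well-expressed scaling these 4 medians were 0.09, 0.10, 0.13 and 0.18, and 4, 0, 4 and 0 genes were higher (background 3.72%). Without WT tumor 2 they were 0.50, 0.59, 0.78 and 0.46 (0.44 over all well-expressed genes), and without WT tumors 3 and 4 they were 0.12, -0.01, -0.12 and 0.39 (-0.06 over all). The glycolytic enzyme Pkm was 3795, 2861 and 3788 CPM against 3226, 1222 and 2099 CPM, so that WT tumor 2 lay inside the KO range, and its fold of 0.67 was 0.01 without WT tumors 3 and 4. Aldoa did likewise, with 0.62 and 0.04. The NRF2 response (0.32, 3 of 18 higher), the integrated stress response (0.37, 3 of 15), immediate early genes (0.35, 3 of 16) and p53 targets (0.26, 1 of 10) lay near the shift of 0.25 over all genes, with counts near or below the background of 18%. Without WT tumors 3 and 4 their medians were -0.18, 0.02, -0.31 and -0.03.

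Genes of nitric oxide and arginine metabolism, which handle the substrate and cofactors of the deleted enzyme, had a median of 0.31 over 9 well-expressed members with 2 higher and 0 lower, near the background of 18%. On well-expressed scaling the median was 0.03 with 1 higher and 1 lower. Slc7a1, which imports arginine, was 325, 324 and 284 CPM in KO against 245, 168 and 236 CPM in WT tumors (fold 0.52, edgeR adjusted p 0.136), with no overlap. Ddah1, which degrades the methylarginines that inhibit nitric oxide synthases, was 110, 88.3 and 113 CPM against 94.6, 39.9 and 65.3 CPM (fold 0.64), where WT tumor 2 overlapped KO tumor 2. Odc1, the first enzyme of polyamine synthesis, was 209, 226 and 273 CPM against 241, 171 and 242 CPM, overlapping.

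Ribosomal protein and respiratory chain genes stood higher in KO tumors without anti-PD-1, the ribosomal genes mostly in untreated tumors. After anti-PD-1 the level of both lists relative to WT depended on the scaling. Of 76 well-expressed cytosolic ribosomal protein genes, 61 were higher in KO without anti-PD-1 (background 10.1%; median 0.55), whereas after anti-PD-1 the median was -0.03 with 1 higher and 1 lower, and 36 of the 76 had a lower interaction at an unadjusted p under 0.05 (background 3.67%). On well-expressed scaling the ribosomal median after anti-PD-1 was -0.33 with 0 higher and 13 lower (background 4.62%), and with the background subtracted it was -0.22. The ribosomal list score was 7.79, 7.67 and 8.24 in KO and 7.74, 7.96 and 8.12 in WT tumors after anti-PD-1, which overlap, but 8.32 to 8.58 against 7.36 to 7.79 in untreated tumors, which do not. Of the nuclear-encoded respiratory chain genes, 61 of 76 were higher without anti-PD-1 (median 0.55). After it the median was 0.16 with 11 higher (-0.14 with 1 higher and 3 lower on well-expressed scaling), and 30 were lower in the interaction. By arm, 61 ribosomal genes were higher in untreated KO tumors (median 0.82) and 3 after IgG (median 0.25). Respiratory chain genes had 53 higher untreated (median 0.64) and 32 after IgG (median 0.43). Over all 9608 well-expressed genes these counts were 821 and 493. Against IgG alone, 1 ribosomal and 4 respiratory chain genes were lower in the interaction (background 0.739%). Atp5a1, the catalytic-head α subunit of ATP synthase, was an exception in level, with 532, 647 and 592 CPM against 471, 263 and 396 CPM (fold 0.65). The 9 well-expressed genes of mitochondrial DNA had a median of -0.22 and 0 past the test.

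The 12 well-expressed protein-coding genes of smallest unadjusted p among those higher in the KO tumors without overlap had folds of 0.58 to 0.80. Eif3f (ENSMUSG00000031029.6, chr7:108934417-108942951, plus strand), a subunit of translation initiation factor 3, was 116, 102 and 126 CPM against 76.4, 49.8 and 71.4 CPM (log2 fold change 0.80, SE 0.19, edgeR adjusted p 0.123). Mrpl4, a mitochondrial ribosomal protein, was 40.3, 39.1 and 50.1 CPM against 31.2, 19.7 and 23.3 CPM. The others were Gpat4, a glycerol-phosphate acyltransferase, Trir, Ccdc85c, the muscle ubiquitin ligase Trim63, Tsta3 of GDP-fucose synthesis, Msto1, the melanosome regulator Mreg, Vill, the ribosome biogenesis factor Bysl and the flap endonuclease Fen1. Every one of them kept a positive fold in all 28 alternatives, with the lowest 0.23 in Bysl. Tsta3 had little spread, at 37.7, 36.8 and 40.3 CPM in KO and 25.4, 25.2 and 26.2 CPM in WT tumors. Of the 1728 genes higher at an unadjusted p, 169 (9.78%) stayed so under well-expressed scaling, background subtraction and the omission of each of the 6 tumors in turn. With the background as a covariate 18 of the 1728 (1.04%) stayed, and without WT tumors 3 and 4 together 42 (2.43%).

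On the lower side, 13 of 73 genes (17.8%) stayed so under the same 8 settings, and 20 and 35 under the covariate and without WT tumors 3 and 4. The 13 were Gbp4, Ifi47, Ciita, Dysf, Faim2, Fat4, Pdzd2 and 6 genes of a repeat family, some of which count as well expressed only through WT tumors 3 and 4. The rule for the 12 smallest unadjusted p named, beside these, D1Ertd622e, whose fold of -0.63 was -0.12 once the background was subtracted. Dysf, a membrane repair protein of muscle, was 10.1, 10.2 and 9.23 CPM in KO and 19.4, 31.4 and 12.3 CPM in WT tumors (log2 fold change -1.09, edgeR adjusted p 0.123). Faim2, an inhibitor of Fas-induced apoptosis, was 11.9, 10.9 and 12.2 CPM against 13.5, 26.4 and 19.9 CPM (fold -0.77), and Mmp15, a membrane-bound metalloproteinase, 10.9, 10.6 and 9.05 CPM against 13.4, 22 and 13.6 CPM (fold -0.68). Fat4, a large atypical cadherin, was 7.72, 5.6 and 6.82 CPM against 16.9, 18.2 and 10.3 CPM (fold -1.17), but less background WT tumor 4 had 6.63 CPM, inside the KO range.

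The lowest folds among well-expressed genes belonged to predicted genes of major satellite repeats, the tandem DNA around centromeres. Gm10800 (chr2:98666547-98667301, minus strand) was 47.1, 110 and 49.4 CPM in the KO tumors, 281 CPM in WT tumor 2, 23311 CPM in WT tumor 3 and 13767 CPM in WT tumor 4 (fold -7.50, edgeR adjusted p 0.119). Gm21738, Gm10718 and Gm10717 had folds of -7.37, -6.42 and -6.54. With the receptor background as a covariate the 4 folds were -0.38, -0.21, -0.35 and 0.21. Gm10801 and Gm26870, also well expressed, had folds of -6.65 and -6.31, and 0.64 and -0.40 with the covariate. All of these belong to 13 genes whose transcripts share 24-base words with that of Gm10800, so their counts can be split between copies. Stretches of 2 of the transcripts are shown because they share the run in capitals, read from the reference annotation's transcripts.
Gm10800, bases 552 to 660: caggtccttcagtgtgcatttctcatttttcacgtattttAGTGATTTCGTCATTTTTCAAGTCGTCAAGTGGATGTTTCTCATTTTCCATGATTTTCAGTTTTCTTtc
Gm21738, bases 158 to 304: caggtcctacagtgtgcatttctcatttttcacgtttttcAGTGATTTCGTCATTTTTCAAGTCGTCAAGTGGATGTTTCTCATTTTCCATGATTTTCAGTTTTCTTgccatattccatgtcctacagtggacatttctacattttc

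The repeat counts were highest in the tumors with the most receptor background, whichever their genotype. Together the 13 genes took 3.98% of the counts of WT tumor 3 and 1.98% of those of WT tumor 4, with summed CPM of 30340 and 17799. In the KO tumors the sums were 68.7, 169 and 68.0 CPM, in WT tumor 2 359 CPM, and in untreated KO tumor 1, the library with the next highest receptor background at 3.90 counts per kilobase, 7912 CPM. Subtracting the receptor rate hardly touches them, since it predicts 0.34 CPM for Gm10800 in WT tumor 3.

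**Figure D5:**
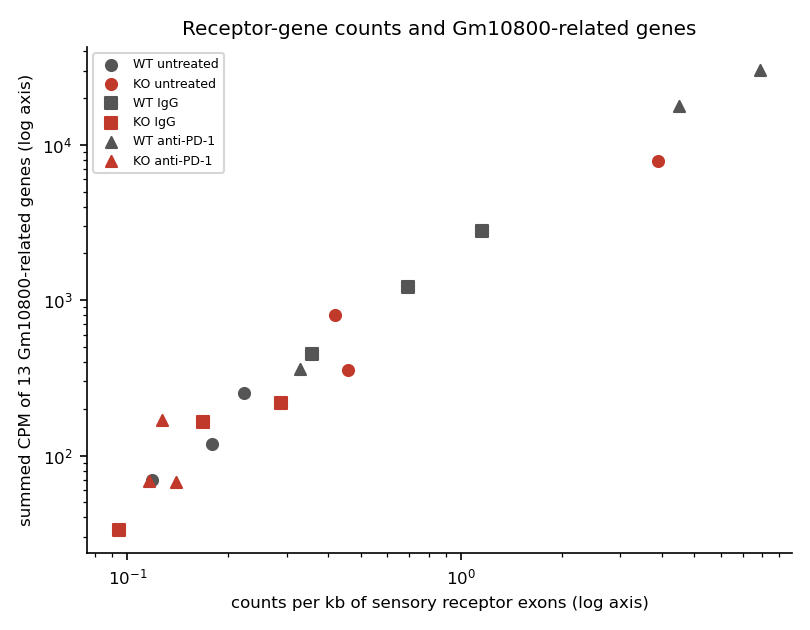
Summed CPM of the 13 repeat genes against counts per kilobase of sensory receptor exons in the 18 tumors, both axes logarithmic, each point a tumor. WT anti-PD-1 tumors 3 (7.86 per kilobase, 30340 CPM) and 4 (4.50, 17799 CPM) and untreated KO tumor 1 (3.90, 7912 CPM) stand at the upper right, and the KO anti-PD-1 tumors at the lower left.

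Genes near Nos2 were counted, since a knockout made in embryonic stem cells of another strain can carry that strain's DNA around the gene. Of 185 protein-coding genes starting within 5 Mb, 91 were well expressed. After anti-PD-1, 79 of them had a fold above 0, and at an unadjusted p under 0.05 there were 16 higher and 0 lower (backgrounds 18% and 0.76%), and their median of 0.29 lay near the 0.25 of all genes. Without anti-PD-1, 5 were higher and 2 lower, 0 passed an adjusted p of 0.05, and the smallest unadjusted p belonged to Ift20, whose fold was 0.48 without anti-PD-1 and -0.23 after it.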

How the data were processed

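Whole-tumor RNA was sequenced in 48 libraries; the 18 of the second experiment were used here, 3 per group. The deposited values are gene-level counts, not normalized. Per the study's methods and the submitters' processing notes, the authors trimmed reads with cutadapt 1.8.1 and processed them with STAR 2.7.7a and RSEM 1.3.0, using mm10 and GENCODE vM21. The values are whole numbers, used as deposited. The deposit labels them FeatureCount whereas the methods name RSEM, and which program made them could not be settled here. How reads shared by gene copies were counted is therefore not known either. Genes numbered 55450.

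Counts were fitted in R 4.3.3 with edgeR 4.0.16 (glmQLFit, glmQLFTest) on all 18 libraries with 1 coefficient for each of the 6 groups, TMM scaling, filterByExpr with a minimum count of 10 and Benjamini-Hochberg adjustment at 0.05, leaving 30837 genes and 12 residual degrees of freedom. Unadjusted counts are descriptions beside their share of all genes. CPM values are TMM-adjusted, and list scores are means of log2(CPM + 0.5). The background per library was the count per kilobase over sensory receptor exons, times a gene's exonic length.

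Named genes were Nos2 and the genes the study names for this comparison; up to 12 per direction of smallest unadjusted p among well-expressed protein-coding genes without overlap; up to 3 per list by level; and up to 4 near Nos2. Some genes these rules choose are not reported here. The tumors, lists and genes were chosen with earlier results of these data known. Tumors are labelled as separate samples. The study states that they were processed individually, with 3 mice per group, though the labels do not say which mouse each library came from. Same-group libraries were compared and none was a copy. Same-numbered libraries did not deviate together, so numbers were not treated as pairs.

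The fit was tested on simulated data for the comparison after anti-PD-1: of 200 well-expressed genes changed 4-fold among 30837, 200 were recovered, with 9 false calls. Apart from the changed genes, each simulated gene had 1 mean in all libraries, with no background in single libraries and no tumor apart from its group. The recovery therefore checks the code and does not measure what the real libraries could detect. Alternatives were DESeq2 1.42.0 (size factors and Wald test), limma 3.58.1 voom, no filter on low counts, the compared groups only, well-expressed genes only, a level of 50 CPM, the background as covariate or subtracted, a replicate block, and each library left out. Figures were drawn with matplotlib 3.10.9.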

Additional observations from a re-analysis of the deposited data

Results flagged for a closer look

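WT anti-PD-1 tumors 3 and 4 had 7.865 and 4.504 counts per kilobase of sensory receptor exons. Both are above the highest of the 12 tumors without anti-PD-1, 3.90 in untreated KO tumor 1. Receptor genes were not removed before testing, so any that passed the filter are among the genes tested and in their background shares. Groups of 3 are too small for the test of a single tumor far from its group, and no gene passed the interaction test at an adjusted p of 0.05 in edgeR (7465 at an unadjusted p under 0.05; 2450 with DESeq2 and 15970 with limma voom).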

How the results depend on the processing

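The count of 0 genes at an adjusted p under 0.05 after anti-PD-1 held with DESeq2 size factors, the background as covariate or subtracted, well-expressed genes only, the compared groups only and without both shallow WT tumors, but became 3046 with the DESeq2 Wald test, 17773 with limma voom and 2829 with no filter, and ran from 0 to 4959 when 1 library was left out (4959 without WT anti-PD-1 tumor 2, 34 to 1112 without 1 of the 12 tumors not given anti-PD-1, and 0 otherwise). The cause was not tested.

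The 1728 well-expressed genes higher became 54 with the covariate, 949 with subtraction, 4291 with voom, 2667 with no filter, 536 with the compared groups only, 357 with well-expressed genes only, 62 without both shallow tumors and 1144 at 50 CPM, and 340 (WT anti-PD-1 tumor 3) to 4594 (WT anti-PD-1 tumor 2) with 1 library left out. The 73 lower became 116 with DESeq2 Wald, 125 with its size factors, 183 with the covariate, 312 with voom, 115 with no filter, 444 with well-expressed genes only, 495 without both shallow tumors and 6 at 50 CPM, and 44 (KO anti-PD-1 tumor 2) to 135 (KO anti-PD-1 tumor 3) with 1 library left out.

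Without anti-PD-1, the 102 genes became 654 with DESeq2 Wald, 219 with the covariate, 245 with voom, 809 with no filter, 423 with the compared groups only, 261 with well-expressed genes only and 354 without both shallow tumors, and 20 (WT anti-PD-1 tumor 4) to 246 (WT anti-PD-1 tumor 2) with 1 library left out. The interaction count of 0 became 2450, 15970 and 2571 with DESeq2 Wald, voom and no filter, and 8 without both shallow tumors, and 0 to 6128 with 1 library left out (6128 without WT anti-PD-1 tumor 2).

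Over all alternatives, 12 values of named genes' folds turned sign, not counting Gm10801. Irf3 was -0.16 with the covariate, -0.12 with well-expressed genes only, -0.15 without both shallow tumors and -0.0073 to 0.30 with 1 left out. Irf7 was 0.54 with voom and -0.77 to 0.59 with 1 left out, Ifng 1.10 and 2.68 with the covariate and without both shallow tumors, Cd274 0.030 with the block and -0.34 to 0.14 with 1 left out, and Gm10717 and Ddah1 0.21 and -0.024 with the covariate. Another 1151 kept direction and side of the threshold, and 228 kept direction and passed an adjusted p of 0.05. Of list medians, 613 moved by less than the spread and 59 by more.

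The replicate block gave 0 genes after anti-PD-1, 2112 higher and 57 lower, 94 without anti-PD-1 and 0 for the interaction. Same-numbered pairs, 36 in all, had correlations of -0.57 to 0.46 (median -0.07), and the 2 KO-WT pairs after anti-PD-1 had -0.38 and 0.05, so the numbers do not pair the samples. Depth limits genes of few counts in WT tumors 3 and 4, and intervals for these were not computed.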
